A study of Mus musculus with 10 samples.

Results

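The RNA of normal mouse lens epithelium at 3 weeks of age was described from the WT libraries of a study of TGF-β1 and anterior subcapsular cataract. These libraries are the 3 of the 10 samples whose genotype is given as wild-type. Each is a pool of whole lens epithelial explants from up to 9 untreated WT mice of the FVB/N background, and the study drew males and females from several litters. The other 7 samples came from OVE853 mice (3 pools of up to 9 mice) and OVE918 mice (4 pools of up to 7 mice), 3-week-old transgenic families of the same background in which the αA-crystallin promoter, active in the lens alone, drives a secreted form of human TGF-β1 that needs no activation. No contrast with these lines was made. Whole explants were collected, so that any cells left on the capsule entered the libraries with the epithelium, and a pool averages over its mice. Values of the 3 pools are given throughout in the order WT replicates 1, 2 and 3, which is the order of their names and carries no other meaning.

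The lens epithelium is a single sheet of cells under the anterior capsule, the basement membrane that these cells secrete throughout life. Its cells divide slowly, transport ions and nutrients for the avascular lens, and at the equator elongate into fiber cells, which lose their organelles and fill with crystallins. Crystallins are the abundant soluble proteins that give the lens its refractive power. The α-crystallins are small heat shock proteins with chaperone activity, whereas the β- and γ-crystallins form another superfamily whose transcription rises as cells become fibers. Maf-family transcription factors, together with Pax6, Sox and Prox1 proteins, are known to act on crystallin promoters.

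The RNA was sequenced as paired 150 bp reads and counted per gene. Total counts were 24073311, 26368077 and 28645174, and 1 count in a library equals 0.0415, 0.0379 and 0.0349 CPM, the counts of a gene scaled to the same total in every library. CPM favours long genes, so that levels of different genes are compared below in FPKM, which is CPM divided by the kilobases of exon of the gene. Shares of counts and ranks by CPM tell where the counts of a library lie, and a gene said to lead a list holds many of its counts, which does not rank the level per length. Means are given ± SD over the 3 pools (n = 3). Because each pool was sequenced once, there is no replicate of a pool, no test between pools was made, and the SD holds both the differences between pools of mice and those of handling. At least 1 count was present on 23571, 23954 and 24621 genes, and 10178 genes reached 2 FPKM in all 3 pools and are called expressed below. Protein-coding genes held 98.2% ± 0.119 of the counts, long noncoding RNA genes 0.691% ± 0.0474 and pseudogenes 0.806% ± 0.139.

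Promoter sequences of 5 crystallin genes are shown first, because all 5 genes are among the 30 most abundant by CPM and range from Cryaa, which varied 1.09-fold between the pools, to Crybb3, which varied 4.08-fold. Each runs from 250 bases before to 50 bases after the annotated start of transcription, 5′ to 3′ on the strand of the gene, and comes from RefSeq on build GRCm38.p6. Capitals mark the 6 bases TGCTGA on either strand (TCAGCA where it lies on the opposite one), which is the core of the half-site that Maf proteins bind, and TATAAA on the strand shown. The windows are chr17:31677681-31677980 on the plus strand for Cryaa, chr11:77725244-77725543 on the minus strand for Cryba1, chr5:112255570-112255869 on the plus strand for Crybb1, chr5:113070068-113070367 on the minus strand for Crybb2 and chr5:113081535-113081834 on the minus strand for Crybb3.
Cryaa: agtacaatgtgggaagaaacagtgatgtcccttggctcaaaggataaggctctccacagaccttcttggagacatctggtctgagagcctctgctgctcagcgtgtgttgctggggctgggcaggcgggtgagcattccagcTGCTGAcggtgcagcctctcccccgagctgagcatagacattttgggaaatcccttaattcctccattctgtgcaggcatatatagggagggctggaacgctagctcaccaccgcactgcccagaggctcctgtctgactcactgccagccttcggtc
Cryba1: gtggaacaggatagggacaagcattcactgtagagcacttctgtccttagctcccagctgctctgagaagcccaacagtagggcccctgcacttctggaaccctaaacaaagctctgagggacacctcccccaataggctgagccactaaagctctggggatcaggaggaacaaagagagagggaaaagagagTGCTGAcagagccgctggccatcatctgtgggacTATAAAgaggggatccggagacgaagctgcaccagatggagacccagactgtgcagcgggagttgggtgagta
Crybb1: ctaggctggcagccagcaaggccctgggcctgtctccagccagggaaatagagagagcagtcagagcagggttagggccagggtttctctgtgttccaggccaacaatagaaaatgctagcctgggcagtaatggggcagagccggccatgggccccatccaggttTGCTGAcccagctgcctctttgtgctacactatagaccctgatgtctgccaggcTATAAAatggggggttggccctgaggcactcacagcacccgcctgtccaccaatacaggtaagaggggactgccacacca
Crybb2: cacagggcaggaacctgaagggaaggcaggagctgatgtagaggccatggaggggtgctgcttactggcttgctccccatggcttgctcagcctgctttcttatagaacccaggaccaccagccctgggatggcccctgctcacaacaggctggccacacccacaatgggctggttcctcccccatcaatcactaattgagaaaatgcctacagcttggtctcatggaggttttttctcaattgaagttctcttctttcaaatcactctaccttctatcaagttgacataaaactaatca
Crybb3: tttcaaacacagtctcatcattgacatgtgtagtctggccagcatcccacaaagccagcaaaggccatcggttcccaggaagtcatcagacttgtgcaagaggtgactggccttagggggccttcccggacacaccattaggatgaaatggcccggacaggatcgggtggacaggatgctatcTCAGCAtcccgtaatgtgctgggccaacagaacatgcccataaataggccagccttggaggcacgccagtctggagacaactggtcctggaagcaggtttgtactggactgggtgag

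TGCTGA begins 108 bases before the start of Cryaa, 57 before Cryba1, 84 before Crybb1 and, on the opposite strand, 67 before Crybb3. The window of Crybb2 holds neither set of letters. Of the 16 crystallin genes, 15 had a RefSeq window, and 10 of these windows (66.7%) held TGCTGA on either strand, with 6 of the 7 windows of α- and β-crystallins and 4 of the 8 of γ-crystallins. Among all 32851 promoter windows of the same length, 6401 (19.5%) held it, and among the 9583 windows of expressed genes 1371 (14.3%) did. TATAAA stood in 4 of the 15 crystallin windows, in 8.32% of all windows and in 4.07% of those of expressed genes. A match of letters is a description and not a binding site, and the crystallin windows were not drawn at random from the others.

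Crystallins were the leading gene family of normal lens epithelia. The 16 crystallin genes held 27.0, 25.2 and 25.2% of the counts (mean 25.8% ± 1.029), and all 16 were expressed. Per length, they held 47.3% ± 2.19 of the summed FPKM, since their mRNAs are short. The α-crystallins held 14.9% ± 0.348 of counts, the β-crystallins 9.38% ± 0.857 and the γ-crystallins 1.53% ± 0.497, and per length 21.2%, 22.7% and 3.50% of the summed FPKM. The α- and β-crystallins thus held near equal parts per length, whereas by counts the α-crystallins held more.

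Cryaa (chr17:31896781-31900707, plus strand, GRCm39), which encodes αA-crystallin, was the most abundant gene in every pool. It took 10.8%, 11.3% and 11.8% of the counts, with 95% exact binomial intervals of 10.818% to 10.843%, 11.274% to 11.298% and 11.806% to 11.830%. The intervals cover counting error alone and not the spread between pools, which was 1.09-fold from lowest to highest. Cryab, the αB-crystallin gene that other tissues also use as a stress protein, had 37078, 36415 and 34153 CPM. Per length, Cryaa stood at 90204 ± 3939.8 FPKM and Cryab at 21232 ± 907 FPKM, a ratio of 3.94, 4.18 and 4.66 within the pools. Both α-crystallins were close to level across the pools, and which pool was highest for their sum changed between CPM and TMM-scaled CPM.

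The β-crystallins split into a steady gene, one that was highest in WT replicate 3 and a group that was highest in WT replicate 1. Cryba2 had 10597, 10836 and 10898 CPM, a spread of 1.028-fold. Crybb2, the most abundant β-crystallin gene, had 34429, 43012 and 50870.4 CPM. Crybb2 was lowest in WT replicate 1 and highest in WT replicate 3. Cryba1, which encodes both βA3- and βA1-crystallin, had 35291, 23182 and 18419 CPM and so had the opposite order. Cryba4, another acidic gene, had 7543, 4649.6 and 3628 CPM. Crybb1 had 8028, 4129 and 2487 CPM. Crybb3 had 7822, 3807 and 1915 CPM. All 4 were highest in WT replicate 1 and lowest in WT replicate 3, by 1.92-fold for Cryba1, 2.08-fold for Cryba4, 3.23-fold for Crybb1 and 4.08-fold for Crybb3.

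Crybb2 and Crybb3 are neighbours on chromosome 5 and share a strand, Crybb2 at chr5:113206124-113217983 and Crybb3 at chr5:113223705-113229450 (minus strand, GRCm39). Their ratio in FPKM, which no scaling of a library can change, was 4.99, 12.8 and 30.1. Crybb2 was therefore the more abundant neighbour in every pool, by the smallest factor in WT replicate 1 and by the largest in WT replicate 3. Cryba4 (chr5:112394359-112402226, minus strand) and Crybb1 (chr5:112400811-112417965, plus strand) overlap in part on opposite strands, and the counting kept strands apart. By FPKM the β-crystallins ranked Crybb2 (58509.8 ± 11249 FPKM), Cryba1 (32485 ± 11025 FPKM), Cryba2 (14968 ± 221 FPKM), Cryba4 (6527 ± 2514 FPKM), Crybb3 (5452 ± 3643 FPKM) and Crybb1 (1156 ± 674 FPKM). The SDs of Cryba4 and Crybb3 span each other's mean, so that this pair of neighbours in the order did not differ beyond the spread, and in WT replicate 1 Cryba1 and Crybb2 were near equal. The level of Crybb1 rests on a union of annotated exons of 4223 bases, the longest of the β-crystallins, and would be higher with a shorter transcript.

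All 8 γ-crystallins were highest in WT replicate 1 and lowest in WT replicate 3, as were 21.9% and 30.8% of all expressed genes, each counted on its own. Crygs, the γS-crystallin gene outside the cluster, held most of the family with 12992, 10523 and 10195 CPM and moved by 1.27-fold. The 6 clustered genes on chromosome 1, which are classic products of fiber cells, together held 0.730, 0.255 and 0.114% of the counts. Crygc had 2345, 760.0 and 384 CPM and Crygb 2114, 744 and 489.5 CPM. Crygd had 1369.7, 482 and 203 CPM. Cryge had 894, 351 and 35.9 CPM and Crygf 194, 76.9 and 4.47 CPM. Cryga had 382, 131 and 21.0 CPM. For each of the 6, WT replicate 1 stood above WT replicate 2 and that above WT replicate 3, by 4.32-fold from end to end for Crygb and by 43.5-fold for Crygf. Crygn, on chromosome 5, had 615, 365 and 159 CPM in the same order. Cryga to Crygf are near copies of one another and read pairs that match several genes were left uncounted, so that the split among the 6 is uncertain, while the order of the pools was the same in each. The FPKM ratio of Crygs to Crygd was 8.54, 19.7 and 45.2. In bulk RNA a lower level of such genes can come from fewer cells of a type or from less RNA per cell, and these cannot be told apart.

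**Figure D1:**
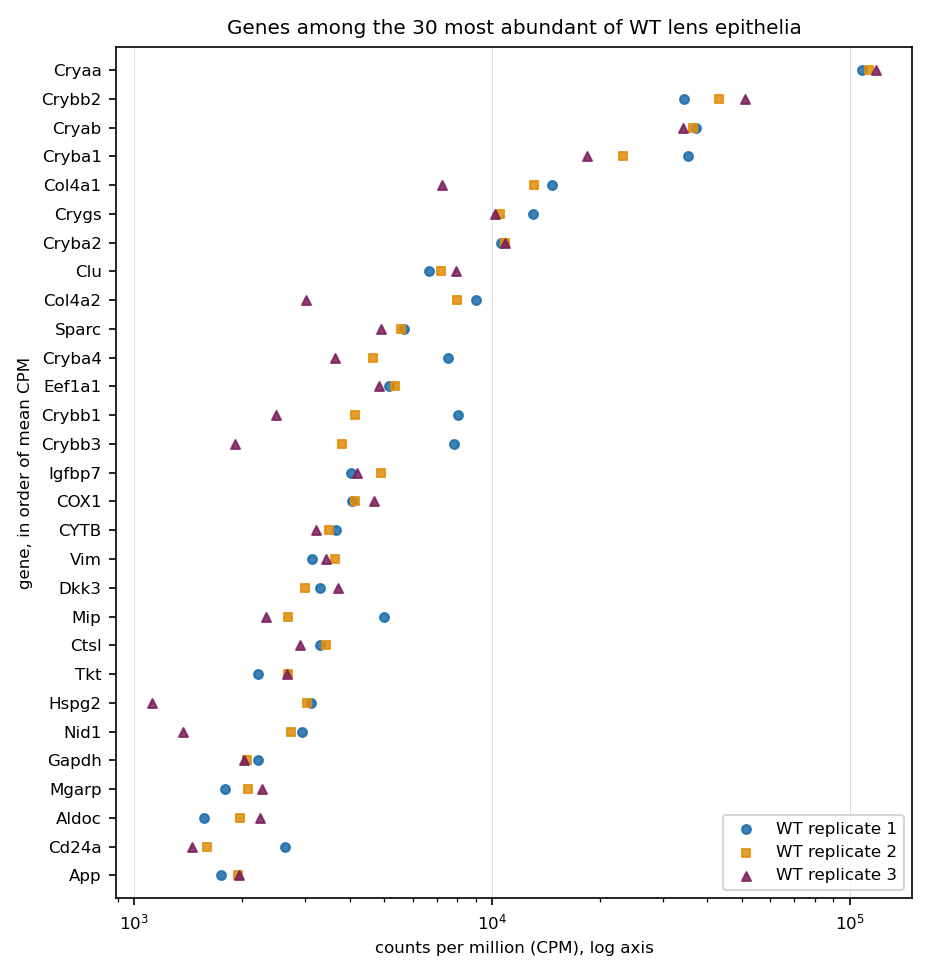
CPM of genes among the 30 most abundant (rows, in order of mean CPM, 1 gene not shown) in the 3 WT pools (points, log axis). Cryaa lies between 108307 and 118178 CPM, whereas Crybb1, Crybb3, Col4a2 and Hspg2 are spread between the pools, with WT replicate 3 lowest.

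Besides crystallins, 14 of the 15 genes of fiber cell membranes and the beaded filament, the cytoskeleton peculiar to the lens, were expressed. The list held 1.48, 1.07 and 0.725% of the counts. Mip, the water channel aquaporin 0 and the most abundant membrane protein of fibers, had 4979, 2685 and 2335 CPM and was highest in WT replicate 1. Grifin, a lens galectin-related protein, had 875, 941 and 980.4 CPM. Lim2, a tetraspan membrane protein of fibers, had 1042, 676 and 614 CPM. Bfsp1, the filensin of the beaded filament, had 579, 522 and 590.4 CPM and its partner Bfsp2, phakinin, 65.7, 57.3 and 49.0 CPM. Grifin and Bfsp1 were level across the pools while Mip and Lim2 were not. Per length, these stood in the order Mip (1549.5 ± 668 FPKM), Grifin (1516 ± 86.7 FPKM), Lim2 (859.9 ± 256 FPKM), Bfsp1 (238 ± 15.5 FPKM) and Gja3 (229 ± 59.7 FPKM), and Mip and Grifin did not differ beyond the spread of Mip. Dnase2b, the nuclease that degrades fiber DNA, was under 2 FPKM on average, with 2.49, 1.93 and 1.43 CPM. TGCTGA stood in the windows of 7 of the 14 genes of this list that had one, Mip among them at 132 bases before its start. Counted by gene, the share was 21.7% over all genes with a window and 16.9% over the expressed ones.

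Of the connexins, which form the channels that couple lens cells, 3 of 9 were expressed. Gja1, connexin 43 of epithelial cells, was level with 531, 538 and 510.0 CPM. Gja3, connexin 46, had 796, 637 and 466 CPM. The FPKM ratio of Gja3 to Gja1 was 2.55, 2.01 and 1.55. The ratio was thus highest in WT replicate 1 and lowest in WT replicate 3. The 6 connexins that were not expressed were between 0.0116 and 7.04 CPM on average, with Gjc1 highest among them.

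The capsule was the largest non-crystallin family by mean share of counts, although ribosomal protein genes held more in WT replicate 3 and more per length. The basement membrane list held 4.11, 3.78 and 2.10% of counts (mean 3.33% ± 1.08) and 1.19% ± 0.316 of the summed FPKM, the lower share reflecting long mRNAs. Col4a1, a chain of the main type IV collagen network, ranked 5th by CPM with 14675, 13077 and 7259.5 CPM. Its partner chain Col4a2 had 9038, 7994 and 3014 CPM. Both were near level in WT replicates 1 and 2 and lower in WT replicate 3. Hspg2, the heparan sulfate proteoglycan perlecan, had 3126, 3029.7 and 1123 CPM. Nid1, which links the laminin and collagen networks, had 2944, 2740.2 and 1366 CPM. Sparc, a matricellular protein of the capsule that binds collagen IV, had 5657, 5582 and 4906 CPM and varied by just 1.15-fold. Of the 18 expressed members, 15 were lowest in WT replicate 3 and 11 (61.1%) varied 2-fold or more, beside 30.8% and 8.59% of the 10178 expressed genes. Their median level in WT replicate 3 was -0.93 on the log2 scale relative to the mean of the other pools, beside 0.08 over all expressed genes. The markers of inner retinal neurons moved with WT replicate 3 in the opposite direction, at sums of 414, 391.8 and 1549.7 CPM over 18 genes with none at 0 counts, and their part in the lower levels of capsule, γ-crystallin and proliferation genes was not tested.

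The remaining collagen IV chains were all expressed. Col4a3 had 863, 867 and 531 CPM and Col4a4 987, 895 and 474 CPM. Col4a5 had 948, 820.0 and 472 CPM and Col4a6 666, 580.3 and 336 CPM. All were lowest in WT replicate 3. These genes lie head to head in pairs, and the FPKM ratio within the pairs was 1.43, 1.42 and 1.41 for Col4a5 to Col4a6, 1.06, 1.17 and 1.35 for Col4a3 to Col4a4 and 1.66, 1.67 and 2.46 for Col4a1 to Col4a2. The pair Col4a5 and Col4a6 thus kept its ratio in the pool where both were low, whereas Col4a2 was lower there by a larger factor than Col4a1. The promoter windows of Col4a1 and Col4a2 overlap by 78 bases (chr8:11312777-11312854, GRCm38.p6, shown on the plus strand), a stretch of 73.1% G and C that is shown because it belongs to both genes.
Col4a1 and Col4a2: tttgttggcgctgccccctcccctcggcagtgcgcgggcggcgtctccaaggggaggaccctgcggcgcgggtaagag
It holds neither TGCTGA nor TATAAA. Among the laminins, which form the other network of the capsule, Lamb1 had 379, 349.9 and 110.4 CPM, Lamc1 331, 309 and 135 CPM and Lama1 173, 183 and 69.5 CPM. Lama5 had 319, 333 and 171 CPM. These 4 chains were lowest in WT replicate 3. Lamb2 had 96.0, 150.1 and 202 CPM and Lama3 146, 248 and 252 CPM, both lowest in WT replicate 1. Lamc3, Lama4 and Col15a1 stayed below 1 CPM on average.

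Fibrillar and other matrix genes were a minor part of normal epithelia at 0.157, 0.106 and 0.0961% of counts, with 9 of 21 expressed. Optc, the small leucine-rich proteoglycan opticin, led with 811, 456 and 387 CPM, followed by Fmod, fibromodulin, with 145, 128 and 152 CPM. Col6a3 had 148, 143 and 61.8 CPM and Vcan, the proteoglycan versican, 149, 71.8 and 117 CPM. Col1a2 had 162, 97.1 and 51.5 CPM while Col1a1, the other chain of type I collagen, had 7.31, 4.25 and 3.63 CPM. Per length, these chains of the same collagen stood at 19.3 ± 10.3 FPKM and 0.854 ± 0.332 FPKM. Of other genes that rise in lens fibrosis, Fn1, Tnc, Tgfbi and Col3a1 were under 2 FPKM on average, with Fn1, fibronectin, at 13.7, 13.6 and 16.02 CPM, Tnc at 1.95, 2.47 and 11.2 CPM, Tgfbi at 3.61, 4.02 and 2.90 CPM and Col3a1 at 1.12, 0.379 and 0.279 CPM.

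**Figure D2:**
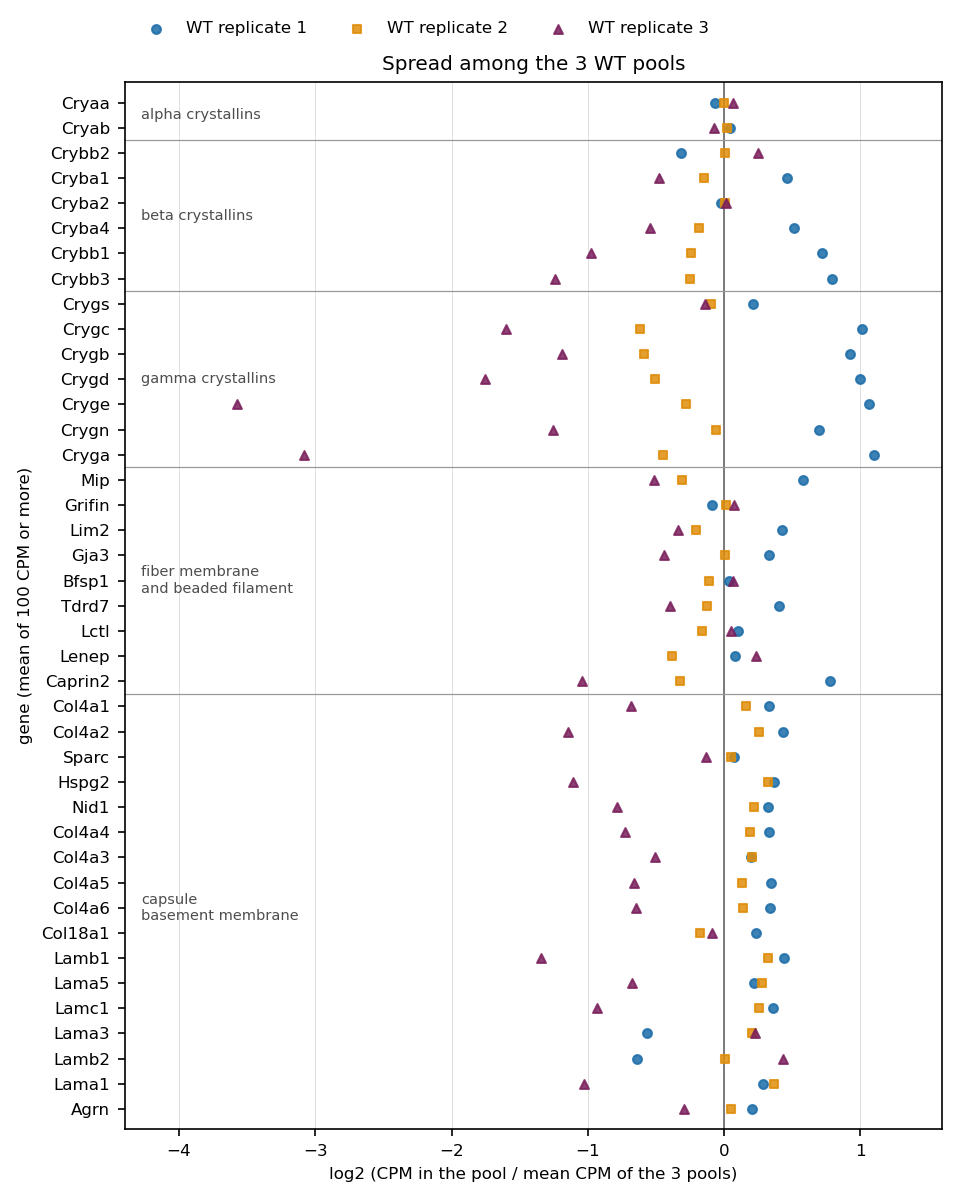
Level of each gene in each WT pool relative to its mean over the 3 pools (log2 of the CPM ratio, points), for the crystallins, the fiber genes and the basement membrane genes with a mean of 100 CPM or more, 1 gene not shown. WT replicate 1 lies to the right for the clustered γ-crystallins and for Crybb1 and Crybb3, and WT replicate 3 lies to the left for these and for most collagen IV and laminin genes, while Cryaa, Cryab, Cryba2, Grifin and Bfsp1 stay near 0.

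Transcription factors of the lens lineage were expressed at far lower levels than the genes above, at 0.312, 0.305 and 0.239% of counts, with 18 of 20 expressed and 0 of the 18 varying 2-fold or more, beside 8.59% of all expressed genes. Foxe3, the forkhead factor that keeps epithelial cells from differentiating, was the highest with 709, 696 and 422 CPM and 703 ± 187 FPKM. Pax6, the paired-box master regulator of eye development, was level with 429.7, 449 and 428 CPM. Prox1, a homeobox factor of fiber differentiation, had 494, 409 and 292 CPM. Maf, the main large Maf protein of the lens, had 271, 237 and 164 CPM. Foxe3, Prox1 and Maf were lowest in WT replicate 3, whereas Pax6 varied by 1.05-fold. Per length, the other members with high levels were Pitx3 (85.3 FPKM), Mab21l1 (74.9 FPKM), Maf (56.5 FPKM), Pax6 (50.6 FPKM) and Prox1 (48.5 FPKM), and Foxe3 stood above each of them in every pool.

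Genes of protein synthesis formed another large group, with more of the summed FPKM than the capsule list. Cytosolic ribosomal protein genes held 2.705, 3.28 and 3.17% of the counts and 5.50% ± 0.589 of the summed FPKM, with 85 of 89 expressed, none of these varying 2-fold (8.59% of all expressed genes did) and Rpl10l at 0 counts in all pools. The family was lowest in WT replicate 1, in which 78 of its 85 expressed genes were lowest, beside 52.6% of all expressed genes. Rplp0, of the ribosomal stalk, had 1043, 1257 and 1172 CPM, and Rpl7 had 891, 1025 and 1017 CPM. Ribosomal proteins have many processed copies in the genome, so that their levels are uncertain where read pairs match a copy. Translation factors held 1.43, 1.48 and 1.40%, led by Eef1a1, the elongation factor that brings aminoacyl-tRNA to the ribosome, with 5141, 5351 and 4827 CPM. Eef2, which moves the ribosome along the mRNA, had 1864, 1914 and 1875 CPM. Of this list, 60 of 90 genes were expressed and 15 had 0 counts in all pools, all of them members of the Eif1ad group of gene models apart from Eef1ece2 and Eif2c5l.

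Energy metabolism was represented by mitochondrial and glycolytic genes. The 13 mitochondrial mRNAs held 1.36, 1.36 and 1.33% of counts. COX1, a subunit of cytochrome oxidase, had 4049, 4135 and 4674 CPM and CYTB, of complex III, 3654, 3500.0 and 3228 CPM. ND1 had 1846, 1882 and 1907 CPM. COX2, COX3 and ATP6 were listed at means of 62.0, 37.4 and 30.3 CPM, far under COX1, and are uncertain, since read pairs that also match nuclear copies of mitochondrial DNA were left uncounted. Nuclear genes of the respiratory chain held 0.658, 0.714 and 0.779%, with 83 of 93 expressed and Cox8c and Ndufb11b at 0 counts. Atp5f1b, a catalytic subunit of ATP synthase, led with 728, 700.2 and 750.0 CPM. WT replicate 3 was highest for 73 of these 83 genes, beside 47.5% of all expressed genes. Their median there was 0.20 on the log2 scale relative to the other pools, beside 0.08 over all expressed genes. The sum of the list varied 1.18-fold by CPM and 1.07-fold by TMM-scaled CPM, with WT replicate 3 highest on both scales.

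Glycolysis and glucose uptake, on which the lens relies in its low oxygen, held 1.10, 1.12 and 1.14%, with 20 of 21 genes expressed. Gapdh had 2223, 2066 and 2022 CPM, Pkm, the last enzyme of the path, 1911, 1821 and 1699 CPM and Eno1 1276, 1399.6 and 1546 CPM. The aldolase gene Aldoc had 1569, 1975 and 2242 CPM. Aldoa, for which the genome holds close copies, was listed at 9.51, 15.2 and 16.7 CPM. The level of Aldoa is uncertain, since read pairs that match several places were left uncounted. Which aldolase was more abundant therefore cannot be told from these values. Slc2a1, the glucose transporter GLUT1, had 1245, 1077 and 683 CPM and was lowest in WT replicate 3. Pgam1 was among the steadiest genes of the data with 168, 168 and 169.7 CPM. Eno2, the neuronal enolase, had 42.1, 38.2 and 208 CPM and stood apart in WT replicate 3. Tkt, the transketolase of the pentose phosphate path that supplies reducing power, ranked 23rd by CPM with 2221, 2684 and 2678 CPM.

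Protection against stress was spread over several families of modest size. Glutathione and antioxidant genes held 0.383, 0.453 and 0.501%, with 32 of 33 expressed. Gstm1, a glutathione transferase, led with 978, 1513 and 1375 CPM. Gpx4, which reduces lipid peroxides, had 234, 314 and 426 CPM and Prdx6, a peroxiredoxin, 168, 258 and 460.0 CPM, both lowest in WT replicate 1 and highest in WT replicate 3. Aldehyde and polyol enzymes held 0.240, 0.333 and 0.392%. Aldh1a1, a retinaldehyde dehydrogenase, was level with 1439, 1567 and 1434 CPM, and Aldh3a1, better known as a corneal crystallin, had 219, 923 and 1604 CPM. Aldh3a1 thus varied by 7.31-fold, the widest of this list. Akr1b1, the aldose reductase of sugar cataract, had 133, 144 and 106 CPM. Cytosolic chaperones held 0.585, 0.575 and 0.570%, led by Hsp90ab1 with 1523, 1439 and 1235 CPM and Hspa8 with 860.4, 899 and 1014 CPM. The inducible heat shock genes Hspa1a and Hspa1b were listed at 0.831, 2.09 and 7.99 CPM and 2.45, 4.70 and 12.04 CPM. These genes are close copies of each other and read pairs that match several places were left uncounted, so that their levels are uncertain. Chaperones of the endoplasmic reticulum, through which capsule proteins pass, held 0.374, 0.351 and 0.298% with 16 of 16 expressed. Hsp90b1 led with 539, 491 and 435 CPM. Serpinh1, the collagen chaperone HSP47, had 293, 262 and 151 CPM and was lowest in WT replicate 3, as were the collagens.

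**Figure D3:**
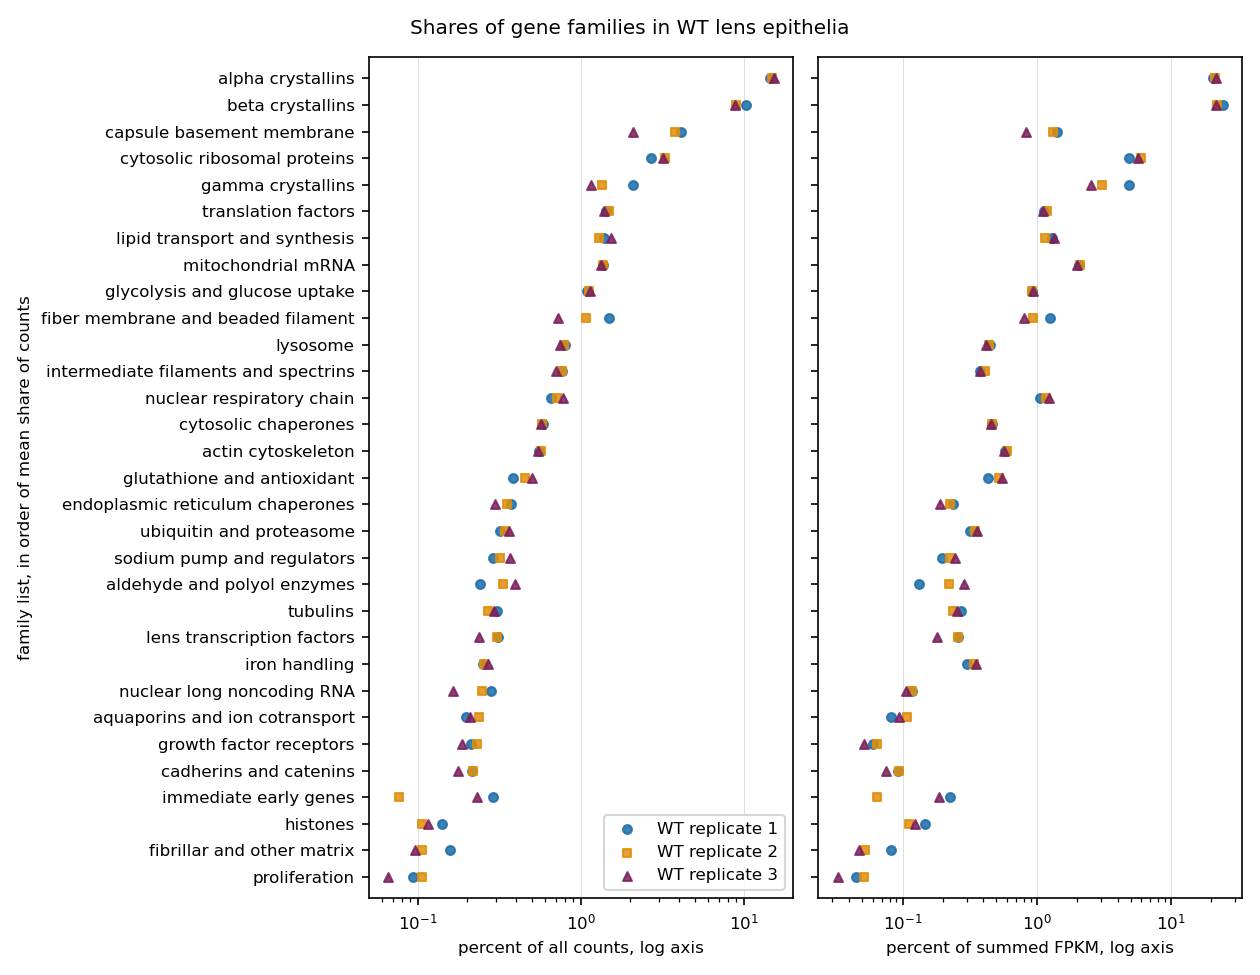
Share of each family list other than the connexins in the 3 WT pools, as a percent of counts (left) and as a percent of summed FPKM (right), both on log axes, in the order of the mean share of counts. Per length, the β-crystallins reach the share of the α-crystallins and the capsule list falls below the mitochondrial mRNAs. By counts, the ratio of the highest to the lowest pool is largest for the immediate early genes (3.78), the fiber membrane list (2.04) and the capsule (1.96).

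The cytoskeleton was led by Vim, the intermediate filament vimentin of lens cells, with 3139, 3630.5 and 3444 CPM. The intermediate filament and spectrin list held 0.771, 0.768 and 0.705%, with Sptan1, the α-spectrin of the membrane skeleton, at 1754, 1729 and 1596 CPM and Ank2, an ankyrin that anchors it, at 881, 808 and 658 CPM. Keratins of surface epithelia were low, with Krt8 at 0.623, 0.228 and 2.27 CPM, Krt5 at 0.249, 0.417 and 2.20 CPM and Krt14 at 0.0415, 0.228 and 0.105 CPM. Actin cytoskeleton genes held 0.557, 0.573 and 0.548%, with 26 of 27 expressed and 0 varying 2-fold (8.59% of all expressed genes did). Actb had 1056, 966 and 942 CPM, Actg1 681, 556 and 609.7 CPM and Ezr, the membrane linker ezrin, 482, 468 and 322 CPM. Acta2, the smooth muscle actin used as a sign of myofibroblasts, had 98.2, 156 and 155 CPM, whereas Tagln, another such sign, had 1.41, 0.721 and 0.454 CPM. Tubulins held 0.304, 0.271 and 0.292%, led by Tuba1a with 1362, 1137 and 1225 CPM and Tubb5 with 666, 629 and 571 CPM.

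Cell contacts and transport were carried by few genes. Cadherins and catenins held 0.215, 0.217 and 0.176%, with Ctnnb1, β-catenin, at 745, 715 and 619 CPM. Cdh1, E-cadherin, had 325, 389 and 256 CPM, and Cdh2, N-cadherin, 366, 318 and 216 CPM. The FPKM ratio of Cdh1 to Cdh2 was 0.987, 1.36 and 1.32, so that both cadherins were present at near equal levels. The desmosomal gene Dsp was at 0.249, 0.190 and 0.244 CPM. The sodium pump and its regulators held 0.288, 0.317 and 0.368%. Of its β-subunits, Atp1b3 had 1145, 1384 and 1325 CPM and Atp1b1 141, 137 and 206 CPM. Channels and ion cotransporters held 0.197, 0.238 and 0.209%, led by Trpm3 with 833, 765 and 607 CPM and Aqp1, the water channel of the epithelium, with 448, 839 and 648 CPM, which was lowest in WT replicate 1. Per length, Aqp1 (217 ± 65.7 FPKM) stood above Trpm3 (115 ± 18.1 FPKM). Aqp5 had 74.4, 74.5 and 93.6 CPM. Piezo1, a channel opened by stretch, had 119, 153 and 125 CPM.

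Lipid genes held 1.39, 1.29 and 1.52% of the counts, most of it on Clu. Clu encodes clusterin, a secreted chaperone and apolipoprotein, and ranked 8th by CPM with 6669.8, 7187 and 7939.9 CPM. Scd2, a stearoyl-CoA desaturase, had 2034, 1664 and 1419.5 CPM. Apoe, the apolipoprotein of glia and macrophages, had 1246, 1136 and 2548 CPM and was highest in WT replicate 3. Fabp5, a fatty acid binding protein, had 1450.1, 594 and 403 CPM and was highest in WT replicate 1. Lysosomal genes held 0.803, 0.791 and 0.745%, with 20 of 20 expressed and 0 varying 2-fold (8.59% of all expressed genes did). Ctsl, the protease cathepsin L, was among the 30 most abundant genes with 3312, 3435 and 2911 CPM. Ctsd had 854, 697 and 737 CPM and Psap, prosaposin, 872, 896 and 1006 CPM.

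Several of the 30 most abundant genes belong to none of these families. Igfbp7, a secreted protein that binds insulin-like growth factors, had 4024, 4890.0 and 4197 CPM. Dkk3, a secreted member of the Dickkopf family, had 3301, 3008 and 3718 CPM. Cd24a, a surface glycoprotein, had 2631, 1597 and 1449 CPM and was highest in WT replicate 1. App, the amyloid precursor protein, had 1746, 1946 and 1964 CPM. Mgarp, a mitochondrial protein, had 1793, 2076 and 2276 CPM. Apart from Cd24a, these genes varied by 1.12-fold (App) to 1.27-fold (Mgarp). By FPKM, Cst3, the protease inhibitor cystatin C, entered the top 30 with 1933 ± 105 FPKM, as did Dapl1 with 1247 ± 369.6 FPKM and Tpt1 with 1242 ± 88.0 FPKM, and 19 genes were among the top 30 on both scales.

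Receptors for growth factors held 0.213, 0.230 and 0.187% of counts and 18 of 27 were expressed. Pdgfra, the receptor through which platelet-derived growth factor drives epithelial division, had 393, 439 and 251 CPM. Fgfr3 had 365, 373 and 283 CPM, Fgfr2 209.7, 240.2 and 191 CPM and Fgfr1 162, 171 and 169.7 CPM. Per length, Fgfr3 (77.4 ± 11.3 FPKM) stood above Fgfr2 (33.6 ± 3.88 FPKM) and Fgfr1 (22.5 ± 0.655 FPKM) beyond their spread, whereas Fgfr4 was at 0.291, 0.796 and 1.40 CPM. Of the receptors of TGF-β, the type I receptor Tgfbr1 had 57.8, 49.3 and 40.0 CPM and the type II receptor Tgfbr2 2.41, 1.55 and 2.69 CPM. Tgfbr2 was under 2 FPKM in all pools, at 0.261 ± 0.0696 FPKM on average. The BMP receptors Bmpr1a and Bmpr2 had 97.9, 98.3 and 79.0 CPM and 78.7, 66.3 and 57.6 CPM. Notch2 had 174, 208 and 139.8 CPM and Notch1 64.3, 71.5 and 58.3 CPM.

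Proliferation genes held 0.0932, 0.107 and 0.0661% of the counts. Ccnd2, a cyclin of the G1 phase, had 283, 329.6 and 207 CPM. Ccnd1 had 152, 236 and 200.4 CPM. Mki67, the Ki-67 antigen, had 64.0, 60.7 and 18.8 CPM. Top2a, the topoisomerase of dividing cells, had 52.1, 50.9 and 20.4 CPM. Mki67 and Top2a were near level in WT replicates 1 and 2 and lower in WT replicate 3. Of the 25 genes, 0 were highest in WT replicate 3, beside 47.5% of all expressed genes, and of the 16 expressed ones 15 were lowest there, beside 30.8%, with a median of -0.85 on the log2 scale relative to the other pools.

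Immediate early genes, whose transcription responds within minutes to signals, set WT replicate 2 apart. They held 0.289, 0.0764 and 0.229% of the counts. Fos had 355, 30.9 and 314 CPM and Fosb 43.2, 0.683 and 19.4 CPM. Egr1 had 444, 73.4 and 265 CPM. Socs3, the inhibitor of cytokine signalling, had 195, 12.1 and 31.1 CPM. Of the 18 expressed genes, 17 were lowest in WT replicate 2, beside 16.6% of all expressed genes, and their median there was -1.68 on the log2 scale relative to the other pools. Fosb varied by 63.3-fold and Socs3 by 16.1-fold, both among the 15 widest spreads of the data, and the FPKM ratio of Fos to Jund was 1.05, 0.129 and 0.903.

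The labelled tissue was checked against markers. All 12 markers of lens epithelium were expressed, with a summed level of 163639.7, 166488 and 162681 CPM, of which Cryaa holds most. Besides Pax6, Foxe3, Cdh1, Gja1, Aqp1 and Pdgfra, Npnt, the matrix protein nephronectin, had 485, 461 and 309.6 CPM, and Tfap2a, a transcription factor of surface ectoderm, 95.3, 106 and 80.8 CPM. Of the 12 fiber markers, 11 were expressed, with a sum of 49476, 53469.6 and 57604 CPM that is mostly Crybb2. The fiber sum was highest in WT replicate 3 for that reason, although 8 of its 12 genes were highest in WT replicate 1. Of the 11 expressed ones, 7 were highest in WT replicate 1, beside 21.9% of all expressed genes.

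Markers of other ocular cells were low beside the lens genes, and the sums for inner retinal neurons and Müller glia were highest in WT replicate 3. The 18 markers of inner retinal neurons summed to 414, 391.8 and 1549.7 CPM, and 18 of 18 were highest in WT replicate 3. Of the 18, 10 were expressed and 10 of these 10 were highest there, beside 47.5% of all expressed genes. Snap25, of the synaptic vesicle machinery, had 25.4, 31.6 and 279 CPM. Calb2, the calretinin of amacrine and ganglion cells, had 7.10, 9.52 and 113 CPM. Gad1, which makes GABA, had 6.605, 12.1 and 99.00 CPM, and Grm6, the glutamate receptor of bipolar cells, 11.3, 11.98 and 81.0 CPM. For these genes WT replicates 1 and 2 were low and WT replicate 3 stood several-fold above both. Trpm1 was less uneven with 149, 137 and 226 CPM. The 8 markers of Müller glia summed to 2029, 1907 and 4393 CPM. Of these, 7 were highest in WT replicate 3. Among the 7 expressed ones, 6 were highest there, beside 47.5% of all expressed genes. Rlbp1, a retinaldehyde binding protein, had 27.8, 34.5 and 209 CPM and Glul, glutamine synthetase, 309, 325 and 1056 CPM. Car14 went the other way with 314, 279.8 and 181 CPM, and Apoe of this list is also expressed by other cells. Photoreceptor markers summed to 49.3, 34.7 and 134 CPM, with 10 of 14 highest in WT replicate 3 (47.5% of all expressed genes were), but 1 of the 2 expressed ones highest in WT replicate 1. Markers of retinal pigmented epithelium summed to 177, 62.7 and 193 CPM, but the genes of the list were split. Rgr and Rpe65 were highest in WT replicate 3, at 16.2, 6.33 and 61.8 CPM and 4.20, 1.29 and 15.2 CPM. Tyrp1, Dct and Pmel, enzymes and a matrix protein of pigment granules, were highest in WT replicate 1, at 68.4, 27.9 and 18.99 CPM, 33.1, 6.98 and 18.8 CPM and 22.6, 6.41 and 6.70 CPM. Under TMM scaling the sum was highest in WT replicate 1.

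Cornea and conjunctiva markers summed to 229, 936 and 1620.0 CPM, nearly all of it Aldh3a1. The defining keratins were low, with Krt12, the keratin of corneal epithelium, at 0.706, 0.645 and 4.89 CPM, and Ly6d had 0 counts in all pools. Krt5 and Krt6a were highest in WT replicate 3 as well, at 0.249, 0.417 and 2.20 CPM and 0.0415, 0.228 and 1.01 CPM. Krt4, the most abundant keratin of the list, was lowest there with 7.81, 11.2 and 6.14 CPM, and Krt14 was highest in WT replicate 2. Of the 10 genes of the list, 7 were highest in WT replicate 3 (47.5% of all expressed genes were). Just 2 of the 10 were expressed, and 1 of these was highest there. The part of corneal cells in the level of Aldh3a1 was not tested. Endothelial markers summed to 58.8, 52.6 and 188 CPM, with Kdr, a receptor of vascular endothelial growth factor, at 14.3, 15.02 and 112 CPM but Pecam1 and Cdh5, which define vessels, at 1.495, 0.417 and 0.384 CPM and 1.58, 1.37 and 0.279 CPM. Macrophage markers summed to 38.8, 23.8 and 58.1 CPM, with Csf1r at 7.48, 4.78 and 12.3 CPM and Ptprc, the common leukocyte antigen, at 0.540, 0.152 and 0.454 CPM. Markers of stromal fibroblasts summed to 444, 295 and 229 CPM, almost all of it Ogn and Col1a2, with Dcn and Lum at 1.04, 0.721 and 2.34 CPM and 0.0415, 0 and 0.279 CPM and Kera at 0 counts. Muscle markers summed to 106, 162 and 162 CPM, mostly Acta2, with Actg2 at 0 counts. Non-pigmented ciliary epithelium summed to 1332, 1123 and 1224 CPM, most of it Cp, the ferroxidase ceruloplasmin, which had 953, 828 and 818 CPM. Melanocyte markers summed to 139, 56.4 and 66.2 CPM, led by Tyrp1 with 68.4, 27.9 and 18.99 CPM. Erythrocyte markers summed to 31.4, 42.0 and 20.4 CPM, with Hba-a2 at 0 counts. Hba-a2 is a close copy of Hba-a1 and read pairs that match several places were left uncounted, so that its level and the sum are uncertain.

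**Figure D4:**
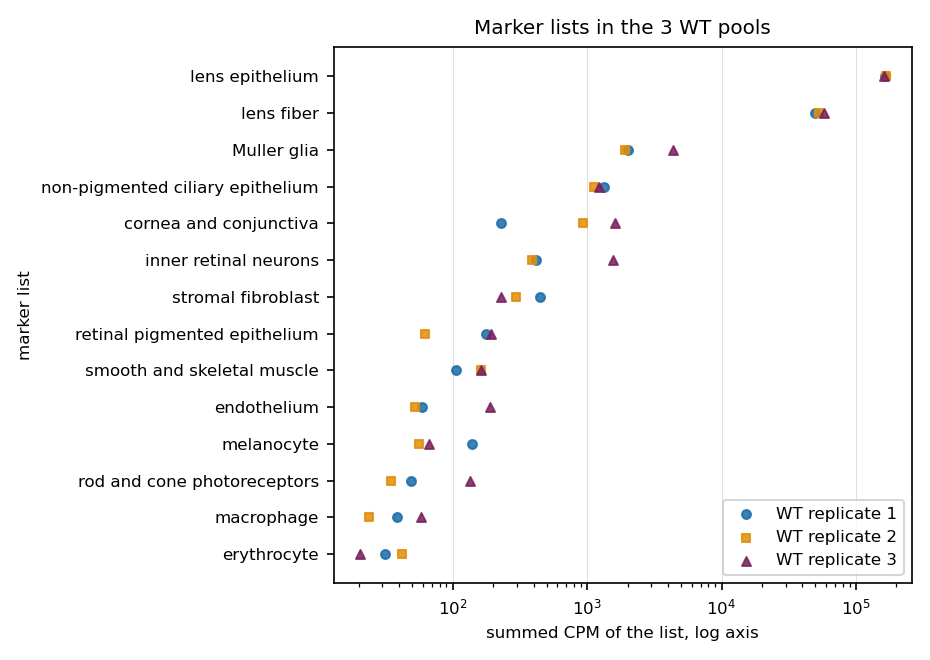
Summed CPM of each marker list in the 3 WT pools (points, log axis). Lens epithelium and lens fiber markers lie at 49476 CPM or more in every pool, and WT replicate 3 stands to the right for inner retinal neurons, Müller glia, photoreceptors and endothelium.

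The pools also differed in the genes of the sex chromosomes. Eif2s3y, Ddx3y, Kdm5d and Uty, genes of the Y chromosome, together had 1164, 0 and 1297 counts. With 0 counts, WT replicate 2 allows up to 0.114 CPM (3 counts), so that Eif2s3y, at 17.9 CPM in WT replicate 1, was at least 157-fold higher there. Xist, the RNA of the inactive X chromosome, had 815, 975 and 416 CPM and was lowest in WT replicate 3. RNA of these Y-linked genes was thus not detectable in WT replicate 2 at its depth, while Xist was present in every pool. The study describes an equal distribution of the sexes over a group and gives no numbers for a pool.

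Across all genes, the spread between the pools was larger than counting error. Among the 9489 genes with a mean of at least 10 CPM, the median coefficient of variation was 11.9%, beside 3.32% from counting alone, and 938 genes (9.89%) varied 2-fold or more from the lowest to the highest pool. Of these, 204 were highest in WT replicate 1, 48 in WT replicate 2 and 686 (73.1%) in WT replicate 3, which was the highest pool for 49.2% of all 9489 genes. Under TMM scaling, which lowered the median log2 ratio of WT replicate 3 to WT replicate 1 from 0.12 to −0.03, 895 genes varied 2-fold and 63.1% of them were highest in WT replicate 3. Between WT replicates 1 and 2 alone, 103 of the genes with a mean of at least 10 CPM over these 2 pools varied 2-fold or more. Among the 68 genes with a mean of at least 1000 CPM the picture turned, since 12 of the 13 genes over 2-fold were highest in WT replicate 1. Of all 68 genes, 44.1% were highest in WT replicate 1 and 25.0% in WT replicate 3. Pairs of pools had a Pearson correlation of log2 CPM over the 10178 expressed genes, which are not independent, of 0.984 for WT replicates 1 and 2, 0.955 for 1 and 3 and 0.967 for 2 and 3. Both of the latter pairs contain WT replicate 3, and 702 and 419 of the expressed genes varied 2-fold in them, against 228 in the first (a set of genes that differs from those at 10 CPM above).

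The 15 widest spreads at 10 CPM or more fell into groups by the pool that stood apart. Crygf, Cryge and Cryga were joined by Capn3, a calpain with a lens splice form, at 56.1, 24.7 and 1.08 CPM, by Gask1b at 36.2, 33.6 and 0.838 CPM and by Gm39503 at 29.7, 10.8 and 1.26 CPM. These 6 genes were lowest in WT replicate 3 and highest in WT replicate 1, with Gask1b near level in WT replicates 1 and 2. The 6 genes that were highest in WT replicate 3 were Calb2 as above, Stmn3, a stathmin of neurons, at 2.99, 5.80 and 51.1 CPM, Syt4, a synaptotagmin, at 2.49, 4.55 and 38.8 CPM, Gabrr2, a GABA receptor of retina, at 1.79, 4.59 and 28.2 CPM, Tmem130 at 2.53, 4.55 and 44.1 CPM and Tmem59l at 1.25, 3.56 and 26.2 CPM. The remaining 3 genes, Fosb, Socs3 and Eif2s3y, were lowest in WT replicate 2. The steadiest of the genes with at least 100 CPM were Mknk2 (106, 106 and 106 CPM), Glo1, which detoxifies methylglyoxal (138, 138 and 138 CPM), and Actr3, of the actin-nucleating Arp2/3 complex (101, 101 and 101 CPM), followed by Dnaja1, Pgam1, Slc39a13, Slc25a5, Tomm6, Ergic3 and Hspa9, all within 1.02-fold.

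**Figure D5:**
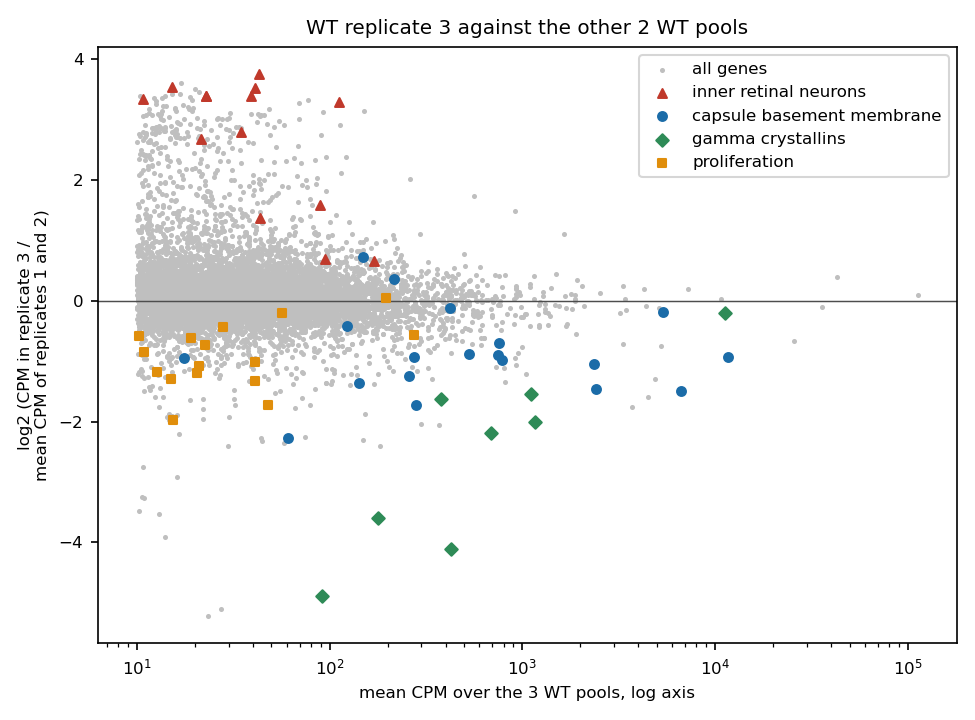
Log2 ratio of the CPM in WT replicate 3 to the mean of the other 2 WT pools (vertical axis, with 0.1 CPM added to both) against mean CPM (log axis) for the 9489 genes with a mean of 10 CPM or more. Inner retinal neuron markers lie above 0, and γ-crystallins and most genes of the capsule and of proliferation lie below 0.

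The concentration of the libraries in few genes followed the same split. The 10 most abundant genes held 27.8%, 27.1% and 26.8% of the counts and the 100 most abundant 43.8%, 41.8% and 39.7%. To reach 50% of a library took 216, 263 and 350 genes, and to reach 90% took 5029, 5232 and 5752. WT replicate 3 was the least concentrated pool. The pools shared 7 of their 10 most abundant genes, 23 of 30, 78 of 100 and 814 of 1000. The common biological coefficient of variation is the spread beyond counting error that edgeR estimates over genes. It was 0.212 for the WT pools, 0.103 for the OVE853 pools and 0.157 for the OVE918 pools. Each value covers the 10178 genes expressed in the WT pools, and that of OVE918 rests on 4 pools. Over the same genes, the coefficient was 0.139 for WT replicates 1 and 2 alone.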

How the data were processed

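Counts per gene of 3 WT, 3 OVE853 and 4 OVE918 pools of lens epithelial explants were used. The submitters' processing notes name cutadapt 5.2, STAR 2.7.11b, featureCounts 2.0.8 and edgeR 4.6.3. The authors aligned trimmed read pairs to GRCm39, counted those that matched the exons of 1 RefSeq gene with the strand of the gene, and deposited these counts without normalization for 50763 genes. Read pairs matching several places were left uncounted, which lowers genes with close copies.

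CPM was computed on the library total. FPKM used the exon union of GENCODE vM39 Primary transcripts (same build), matched by symbol for 43265 genes, and the 7498 genes without a length held at most 0.211% of counts. Spread was estimated with edgeR 4.0.16 in R 4.3.3 (TMM, intercept, robust), and this step was tested on simulated data. DESeq2 1.42.0 size factors were an alternative, as were other filters and lengths. Promoters of RefSeq (GRCm38.p6) were searched for 2 motifs. Binomial intervals and the limit of 3 counts cover counting error.

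The gene lists (32 families, 16 sets of markers) were chosen with earlier results of these data known. Named are the 30 genes with the highest mean CPM, up to 5 leading members of each family and those at 0 counts, the 15 widest spreads (mean of 10 CPM or more), the 10 steadiest genes (mean of 100 CPM or more) and markers. Other family members, and genes that are in the top 30 by FPKM alone, were named after their values were seen. Some genes covered by this rule are not reported here. No contrast between groups was made.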

Additional observations from a re-analysis of the deposited data

How the results depend on the processing

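No paired analysis was possible because no groups were compared and the replicate numbers name pools only. The share of crystallins was 25.8% of counts and 47.3% of summed FPKM, or 46.0% with lengths of canonical transcripts, an alternative chosen after seeing the data. Leaving out crystallins, 887 genes in place of 275 on average held 50% of the counts. Without 1 WT replicate, the common BCV ranged from 0.139 to 0.253 and the number of genes over 2-fold from 103 to 911, both lowest without WT replicate 3. The BCV was 0.375 over genes with 1 count or more and 0.326 after filterByExpr. With a minimum mean of 1 CPM or 100 CPM, 3075 or 104 genes were over 2-fold. Between 8569 and 13830 genes were expressed under the other minimums and lengths tried. In FPKM in place of counts, 27 of 32 family shares moved by more than 1 SD, 8 of them up. Under TMM and under DESeq2 factors, 16 of 16 marker sums moved by less than 1 SD. These are means over the 3 pools, which such factors can hardly move, so that this does not test how the pools compare. Without WT replicate 3 the mean sum of inner retinal neuron markers was 403 in place of 785 CPM and that of cornea and conjunctiva 583 in place of 928 CPM. Without WT replicate 1, ribosomal protein genes (3.22%) held more counts than the capsule list (2.94%). The pool that was highest or lowest changed under TMM or DESeq2 factors for the lists of α-crystallins, mitochondrial mRNAs, translation factors, glycolysis, actin, cadherins, channels, lipid, iron, the proteasome, lens epithelium, retinal pigmented epithelium and muscle.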

Other observations

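Nuclear long noncoding RNAs held 0.282, 0.247 and 0.163% of the counts in WT lens epithelia, with 13 of 17 expressed. Malat1, which stays in nuclear speckles, had 1589, 979 and 555 CPM and was highest in WT replicate 1. Neat1, the scaffold of paraspeckles, had 77.3, 132 and 149.8 CPM and was lowest there, so that these neighbours on chromosome 19 had opposite orders of the pools. Gas5, a host of small nucleolar RNAs, had 171, 212 and 190.4 CPM. Meg3 and Rian, maternally expressed RNAs of the same imprinted locus, had 23.6, 22.0 and 97.9 CPM and 7.23, 7.21 and 30.2 CPM, both highest in WT replicate 3, whereas H19 was at 0.748, 1.14 and 0.559 CPM.

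Iron genes held 0.250, 0.256 and 0.270%, with the ferritin chains Fth1 at 574, 787 and 900.0 CPM and Ftl1 at 754, 768 and 726 CPM and the transferrin receptor Tfrc at 62.2, 46.2 and 35.6 CPM, while Hjv had 0 counts. Ubiquitin and proteasome genes held 0.318, 0.340 and 0.361%, with 37 of 41 expressed, and Ubb had 459.8, 519 and 613 CPM. Histone genes held 0.140, 0.106 and 0.115%. The variants H3f3b and H3f3a, whose mRNAs are polyadenylated, led with 474, 240.1 and 333 CPM and 304, 329.6 and 298 CPM, and 15 of 86 histone genes had 0 counts in the WT pools, among them H3c1 and H3c2.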
